A study of Canis lupus familiaris with 4 samples.

Results

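The cytosolic ribosomal protein genes are the genes whose symbol begins with RPL or RPS and a digit, together with RPLP0, RPLP2 and RPSA. Symbols beginning with RPS6K, which name kinases, and the ribosomal paralogs whose symbols end in L or L1 were left out. By this rule 72 of the 11691 genes that the authors' filters left in every library were members. They were 40 proteins of the large (60S) subunit, 31 proteins of the small (40S) subunit, and RPS19BP1. RPS19BP1 encodes a binding partner of RPS19 and is no ribosomal protein. The RNA came from CD8+ T cells that had been expanded from the blood mononuclear cells of 2 healthy mixed-breed dogs, a female and a male, for 14 to 20 days in IL-2 at 2500 IU/mL with 50 µM 2-mercaptoethanol, and then purified. Cells of the exosome group were cultured with exosomes, small vesicles shed by cells, of CLBL-1, a line grown from a dog's diffuse large B cell lymphoma, and cells of the control group received PBS. The treatment label names 50, 100 and 200 µg/mL of exosomes, and the series' design text gives 50 µg/mL. Each group held 2 libraries, and each dog gave 1 library to each group.

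The libraries form 2 pairs, the 2 columns of a deposited table, with 1 table per dog. The columns of pair 1, from the female dog, are named 24 h and those of pair 2, from the male dog, 48 h, whereas the labels give 48 h for all 4 libraries. Dog, sex and any difference in exposure time between the pairs cannot be told apart. Levels are read counts that the authors divided by 1 size factor per library, called scaled counts here. Values in pairs or fours follow the order PBS and exosomes of pair 1, then PBS and exosomes of pair 2. The recovered reads in the shared genes numbered 12325953 with PBS and 10056143 with exosomes in pair 1, then 9417298 and 12046358 in pair 2. The summed scaled count of 8 measured CD8 T cell markers was 2255 with PBS and 1880 with exosomes in pair 1. In pair 2 it was 4119 and 3998. Of the 8, 1 was higher and 6 were lower with exosomes in both pairs. CD8A stood at 385, 286, 488 and 453, and CD8B at 73.4, 72.7, 479 and 528. The 5 CD4 T cell markers summed to 178, 237, 170 and 143. Of the B cell and B cell lymphoma markers, 5 could be summed, and they reached 28.8, 16.3, 15.7 and 12.7. Among 9 markers of monocytes, macrophages and dendritic cells 1 could be summed, CD68, at 0.471, 2.17, 0.849 and 1.02, and none of 5 neutrophil markers was among the shared genes.

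A cytosolic ribosome joins a small subunit, which binds the messenger RNA and reads its codons, to a large subunit, which links the amino acids. Each ribosomal protein is normally present in a single copy per ribosome, apart from the acidic stalk proteins, so cells make these proteins in step. Their messenger RNAs begin with a run of pyrimidines, the 5′ terminal oligopyrimidine (TOP) motif, through which the kinase complex mTORC1 sets how fast they are translated. T cells build up ribosomes when they leave the resting state and divide.

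Ribosomal protein transcripts stood mostly higher with exosomes, by small amounts. Exosome over control, 58 of 72 members were higher in pair 1 and 68 of 72 in pair 2, and 55 were higher in both pairs, which is 76.4% of the members. In the same count 27.8% of all 11691 genes were higher in both pairs, and 28.7% of the 2237 other genes with a mean scaled count of 100 or more. RPL3 was the single member lower in both pairs, against 32.5% of all genes and 31.9% of the other genes at 100 or more, and 16 members moved in opposite directions. The median member differed by 8.84% in pair 1 and 19.3% in pair 2. On the log2(scaled count + 1) scale these medians were 0.12 and 0.25, against −0.02 and −0.03 for all genes and 0.08 and −0.07 for the other genes at 100 or more. The fitted median over both pairs was 0.20. In fits with no block it turned to −0.01 without the control library of pair 1 and to −0.07 without the exosome library of pair 2, since the dogs then stand unequally in the groups.

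No member passed the test across all genes. limma, with the pair as a block and Benjamini-Hochberg adjustment at 0.05, called 0 members higher and 0 lower, against 0.248% of all genes higher, 0.496% lower and 0.744% either way. None had an unadjusted p under 0.05 by limma, against 15.9% of all genes, and the smallest adjusted p, that of RPS21, was 0.422. The count was also 0 with edgeR, limma-voom and DESeq2 on the recovered reads, where the smallest adjusted p of a member was 0.359, 0.324 and 0.528, and where edgeR and limma-voom called 0% and DESeq2 1.45% of all genes. At an unadjusted p under 0.05, edgeR and DESeq2 counted 0 members and limma-voom 1, against 1640, 1056 and 1738 of all genes with edgeR, DESeq2 and limma-voom. The standard errors of the members' fitted log2 folds were 0.23 to 0.25, as wide as most of the folds, with 2 libraries in each group. The 29 and 58 genes behind the shares of all genes also rest on the scaling, since TMM factors left 0 in each direction.

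**Figure D1:**
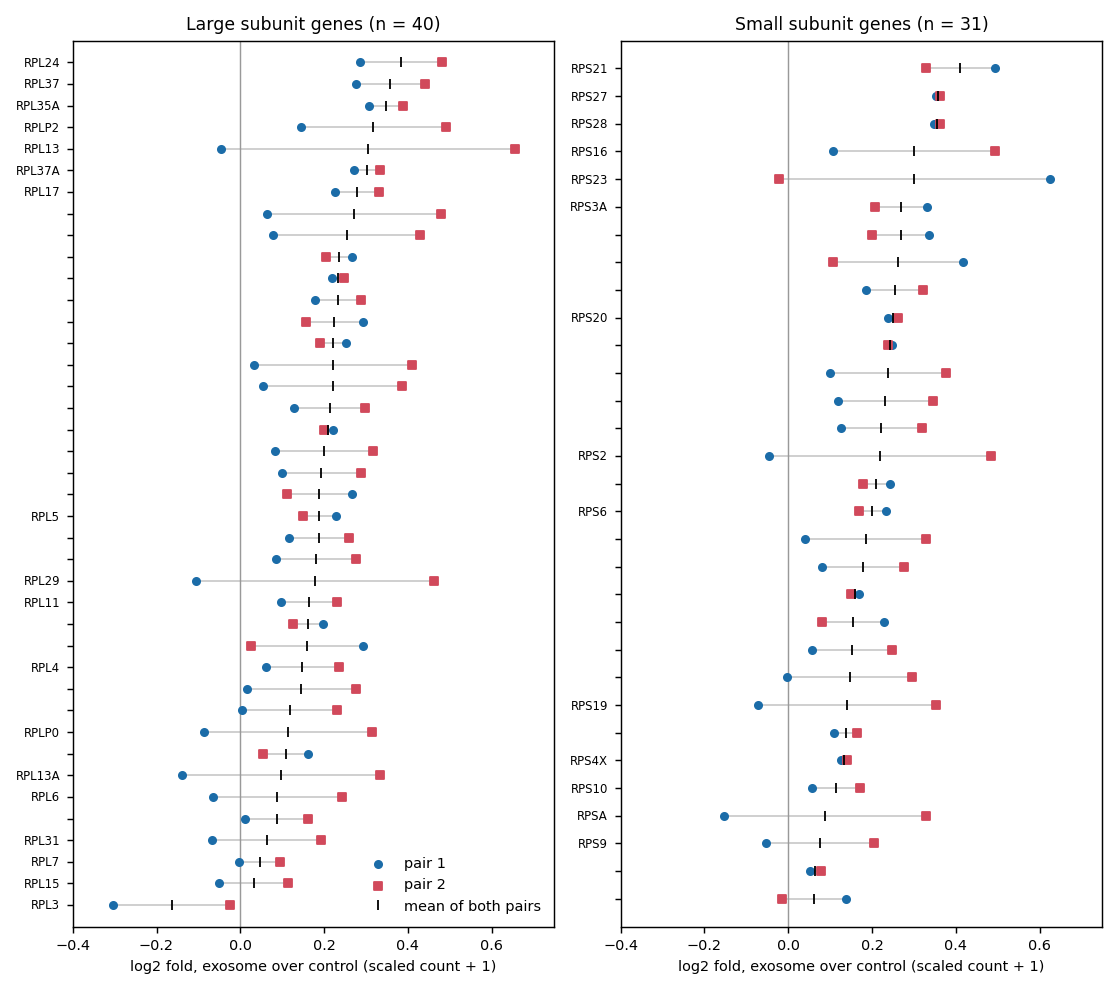
Log2 fold of the scaled count + 1, exosome over control, for the 40 large subunit and 31 small subunit genes, with a circle for pair 1, a square for pair 2 and a tick for the mean of both; genes described in the text are labelled. In the large subunit 31 circles and 39 squares lie right of 0, in the small subunit 26 circles and 29 squares, and RPL3 alone lies left of 0 in both pairs.

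Across libraries, the difference between the pairs was wider than that between the groups. The member reads made up 4.86% of the recovered reads with PBS and 5.06% with exosomes in pair 1, then 6.26% and 7.85% in pair 2. The 95% Wilson intervals were 4.85 to 4.88, 5.05 to 5.07, 6.25 to 6.28 and 7.83 to 7.86, and cover counting error only. The exosome library was therefore the higher of its pair in each dog, and the control library of pair 2 lay above the exosome library of pair 1, so the groups overlap. The share was 5.56% ± 0.989 (SD, n = 2) in the control group and 6.46% ± 1.97 (SD, n = 2) in the exosome group. The difference of 0.892 percentage points had a two-sided exact permutation p of 0.667, where 0.333 is the smallest p that 2 against 2 libraries allow. That test rearranged all 4 libraries and did not use the pairing, so its p also holds the difference between the pairs. Within the pairs the difference was 0.20 points in pair 1 and 1.59 in pair 2. Leaving out the exosome library of pair 2 turned the difference of the group means to −0.50 points.

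In 52 of the 72 members the libraries stood in the same order from low to high: control of pair 1, exosome of pair 1, control of pair 2, exosome of pair 2. The exosome library of pair 2 was the highest of the 4 for 66 members and the control library of pair 1 the lowest for 56. The same counts over all genes were not made. Between the control libraries the median member was higher in pair 2 by 0.47 on the log2 scale, and between the exosome libraries by 0.55, against 0.01 and −0.01 for all genes. Both exosome libraries lay above both control libraries for 2 members, RPS20 and RPS28, against 12.9% of all genes and 14.4% of the other genes at 100 or more. No member had both exosome libraries below both control libraries, against 14.3% of all genes. In bulk RNA, a different make-up of the culture and a different amount of RNA per cell cannot be told apart. NK cell markers, 6 of which could be summed, stood at 943 (PBS) and 1328 (exosomes) in pair 1, then 400 and 372 in pair 2. Of 7 NK markers measured, 1 was higher with exosomes in both pairs, 3 were lower in both and 3 went opposite ways. Single NK markers ranged from −2.13 to 1.64 on the log2 scale in pair 1, around a median of −0.20. The rise of the NK sum in pair 1 was therefore not shared by most of these markers. For plasma cells 3 markers were summed, JCHAIN, PRDM1 and XBP1, at 287, 514, 175 and 187. What part either set had in the ribosomal values was not tested.

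**Figure D2:**
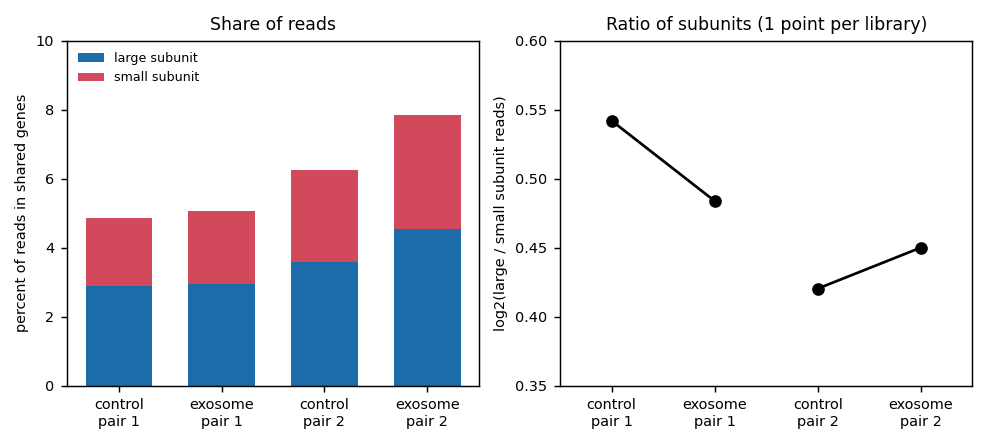
Left, percent of the recovered reads in large subunit genes (blue) and small subunit genes (red) in each of the 4 libraries, stacked from 0. Right, log2 of large over small subunit reads, 1 point per library, on an axis from 0.35 to 0.6. The stacks grow from left to right, while the ratio is lower with exosomes in pair 1 (0.54 to 0.48) and higher in pair 2 (0.42 to 0.45).

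The large and small subunit did not part from each other with exosomes by more than the libraries varied. Large subunit genes took 2.88% of reads with PBS and 2.95% with exosomes in pair 1, then 3.58% and 4.53% in pair 2. Small subunit genes took 1.98%, 2.11%, 2.68% and 3.32% in the same order. The log2 ratio of large to small subunit reads was 0.54, 0.48, 0.42 and 0.45, lower with exosomes in pair 1 and higher in pair 2. The difference of the group means was −0.01, with a two-sided exact permutation p of 1, again without the pairing. That difference was 0.05 without the control library of pair 1 and 0.003 without the exosome library of pair 2. The 40 large subunit genes had a median log2 fold of 0.10 in pair 1 and 0.27 in pair 2, and the 31 small subunit genes a median of 0.13 and 0.25. Of the large subunit genes 31 were higher in both pairs, and of the small subunit genes 24.

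The 6 large subunit genes with the highest fitted folds were RPL24, RPL37, RPL35A, RPLP2, RPL13 and RPL37A. RPL24, which joins the large subunit late in its assembly and reaches across to the small subunit, stood at 417 with PBS and 509 with exosomes in pair 1, then 590 and 824 in pair 2. The exosome library was higher in each pair, but the control of pair 2 lay above the exosome library of pair 1. The fitted log2 fold of RPL24 was 0.38 ± 0.23 (SE), with a limma Benjamini-Hochberg adjusted p of 0.463. RPL35A, which is mutated in some people with the inherited anaemia Diamond-Blackfan anaemia, went from 413 to 512 (pair 1) and from 514 to 673 (pair 2), so that its exosome library of pair 1 and control library of pair 2 were nearly level. RPL37 and RPL37A encode small zinc-binding proteins. RPL37 had 89.9 and 109 in pair 1 and 125 and 170 in pair 2, and RPL37A 270 and 326, then 362 and 457, each in the order control, exosome. For both genes all of pair 2 lay above all of pair 1.

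Of the members with a mean scaled count of 100 or more, RPL13 had the widest difference in log2 fold between the pairs. RPL13 encodes a structural large subunit protein and stood at 634 with PBS and 614 with exosomes in pair 1, then 588 and 927 in pair 2. The exosome library of pair 2 thus stands alone, and the other 3 libraries lie close together. Its log2 folds were −0.05 (pair 1) and 0.65 (pair 2), and 0.30 ± 0.25 (SE) fitted. RPL29, a heparin-binding large subunit protein chosen after its values were seen, had the same shape with 558, 518, 560 and 772 in the order PBS and exosomes of pair 1, PBS and exosomes of pair 2.

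The acidic stalk of the large subunit recruits and activates the elongation factors. RPLP0, the base of the stalk, stood at 955 (PBS) and 899 (exosomes) in pair 1, then 884 and 1100 in pair 2. RPLP2, which binds to that base, stood at 353, 390, 391 and 550 in the same order. For both genes the exosome library of pair 2 was the highest, and the other 3 libraries lay close together. The fitted log2 fold was 0.11 ± 0.24 (SE) for RPLP0 and 0.32 ± 0.23 (SE) for RPLP2. RPLP1, the partner of RPLP2, was not among the symbols used and is not analysed here.

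RPL3, RPL15, RPL7, RPL31 and RPL6 were among the large subunit genes with the lowest fitted folds. RPL3, which reaches with a long extension to the site where peptide bonds are made, stood at 1100 with PBS and 892 with exosomes in pair 1, then 1259 and 1238 in pair 2. The exosome library of pair 1 was the lowest of the 4, and the libraries of pair 2 were nearly level. Its log2 folds were −0.30 in pair 1, −0.02 in pair 2 and −0.16 ± 0.23 (SE) fitted, with a limma Benjamini-Hochberg adjusted p of 0.81. RPL15, also found mutated in Diamond-Blackfan anaemia, went from 1332 to 1286 (pair 1) and from 1429 to 1547 (pair 2). RPL7, also of the large subunit, was level in pair 1 at 1200 and 1198 and went from 1645 to 1757 in pair 2. On the log2 scale RPL6 showed the widest gap between the pairs of any member. Its scaled counts were 514 (PBS) and 491 (exosomes) in pair 1, then 1257 and 1487 in pair 2.

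**Figure D3:**
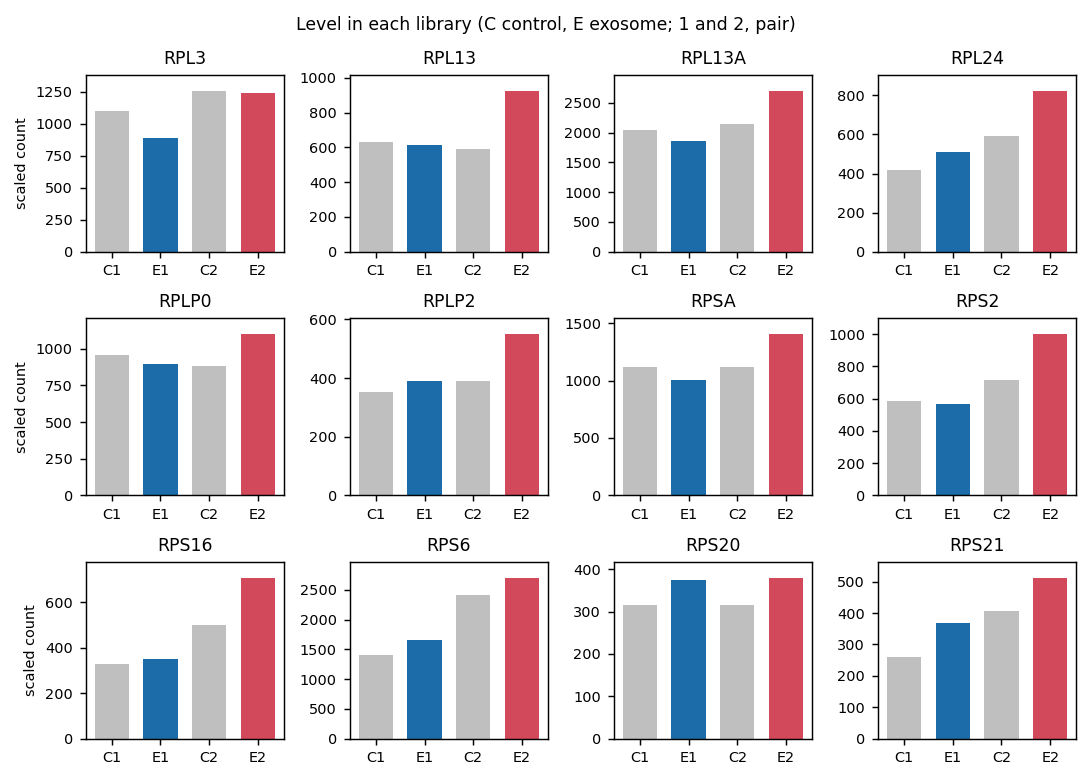
Scaled count of 12 ribosomal protein genes in each library, 1 bar per library from 0, with C for control, E for exosome and 1 and 2 for the pair; there is no error bar, since each bar is a single library. For RPL24, RPS16 and RPS21 the bars climb from C1 to E2, for RPL13, RPL13A, RPLP0 and RPSA E2 alone stands out, RPL3 is lowest in E1, and for RPS20 both exosome bars (374 and 380) pass both control bars (316 and 317).

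Among proteins at the tunnel through which the new protein leaves the ribosome, RPL4 and RPL17 were higher with exosomes in both pairs. RPL4, which helps form the narrowest stretch of the tunnel, stood at 1550 with PBS and 1617 with exosomes in pair 1, then 2073 and 2440 in pair 2. RPL17 stood at 1078, 1261, 1801 and 2267 in the same order, but its identifier also carries a second symbol, so its reads may belong to more than 1 gene. For both genes all of pair 2 lay above all of pair 1. RPL31, near the tunnel's mouth, was listed at 8.0, 7.59, 7.86 and 9.12. The 7 measured tunnel genes had a median log2 fold of 0.20 in each pair. RPL13A, which in human myeloid cells also leaves the ribosome to silence inflammatory messenger RNAs, stood at 2047 and 1859 (pair 1) and 2144 and 2704 (pair 2), lower with exosomes in pair 1 and higher in pair 2.

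RPL5 and RPL11 carry the 5S ribosomal RNA into the large subunit and, when ribosome assembly fails, bind MDM2 and so raise p53; they were chosen as the 5S particle and lie outside the rule for named genes. RPL5 stood at 1021 with PBS and 1196 with exosomes in pair 1, then 1698 and 1883 in pair 2. RPL11 stood at 532, 570, 812 and 954 in the same order. Both genes were higher with exosomes in each dog, and for each gene the control library of pair 2 lay above the exosome library of pair 1. Their fitted log2 folds were 0.19 ± 0.23 (SE) for RPL5 and 0.16 ± 0.23 (SE) for RPL11.

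In the small subunit the highest fitted folds belonged to RPS21, RPS27, RPS28, RPS16, RPS23 and RPS3A. RPS21, a short protein of the subunit, stood at 260 with PBS and 367 with exosomes in pair 1, then 408 and 512 in pair 2. Each exosome library was above its own control, and the exosome library of pair 1 lay below the control of pair 2. RPS21 had the highest fitted log2 fold of all members, 0.41 ± 0.23 (SE), and 0.088 to 0.73 with 1 library left out and no block. RPS27, a zinc-finger protein, went from 299 to 382 (pair 1) and from 469 to 602 (pair 2), with nearly equal log2 folds of 0.35 and 0.36. RPS3A, which lies where the messenger RNA leaves the subunit, went from 965 to 1214 (pair 1) and from 1422 to 1643 (pair 2). RPS16, whose tail reaches the transfer RNA in the decoding site, went from 327 to 352 (pair 1) and from 502 to 707 (pair 2). Its identifier is shared with DYRK1B, a kinase gene, so these reads may not all be those of RPS16.

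RPS20 and RPS28 were the members whose groups did not overlap. RPS20, which is ubiquitinated when ribosomes collide and was chosen after its values were seen, stood at 316 with PBS and 374 with exosomes in pair 1, then 317 and 380 in pair 2. The controls of both pairs were level, as were both exosome libraries, unlike most members, which differed between the pairs. The fitted log2 fold of RPS20 was 0.25 ± 0.23 (SE), with a limma Benjamini-Hochberg adjusted p of 0.682, and limma draws the spread of each gene toward that of all genes. RPS28, at the exit of the messenger RNA, was listed at 1.41, 2.07, 1.06 and 1.65, and RPS23, a protein of the decoding site, at 0.863, 1.87, 2.97 and 2.91. Such levels, like that of RPL31, are low for ribosomal proteins, which are usually among the most abundant transcripts. Ribosomal protein genes have many near-identical pseudogene copies, and whether reads that map to several places were counted is not given in the sources used here. The values of these 3 genes are therefore uncertain. Of the 72 members, 3 had a mean scaled count under 10 and 4 under 100, the other being RPS19BP1 at 25.9, 28.4, 37.8 and 35.4.

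RPS9, RPSA, RPS10 and RPS4X were among the small subunit genes with the lowest fitted folds, all above 0. RPSA, which sits at the exit side of the messenger RNA channel and is also known as the laminin receptor, stood at 1120 and 1008 (pair 1) and 1120 and 1407 (pair 2). The controls of RPSA were level and its exosome libraries lay on opposite sides of them, with a fitted log2 fold of 0.09 ± 0.24 (SE). RPS9, needed for accurate decoding, went from 549 to 529 (pair 1) and from 577 to 665 (pair 2). The identifiers of RPSA and RPS9 also carry a second symbol. RPS10, which like RPS20 is a target of the ubiquitin ligase ZNF598, went from 492 to 512 and from 772 to 869, and RPS4X from 1229 to 1342 and from 1749 to 1927.

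RPS6, the small subunit protein that S6 kinases phosphorylate downstream of mTORC1, stood at 1414 with PBS and 1661 with exosomes in pair 1, then 2405 and 2703 in pair 2. It was higher with exosomes in each pair, and the pairs differed more than the groups. The fitted log2 fold of RPS6 was 0.20 ± 0.23 (SE). RPS2, at the entry of the messenger RNA channel, and RPS19, the gene most often mutated in Diamond-Blackfan anaemia, were chosen after their values were seen. RPS2 stood at 588 and 569 (pair 1) and 716 and 1001 (pair 2), and RPS19 at 896, 852, 1072 and 1369. Both were slightly lower with exosomes in pair 1 and highest of all in the exosome library of pair 2. The identifier of RPS19 is shared with CD79A, a B cell receptor gene, so its reads may not all be ribosomal.

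Which ribosomal genes differed most was not the same in the 2 pairs. Over the 68 members with a mean scaled count of 100 or more, the log2 folds of pair 1 and pair 2 had a Pearson correlation of −0.12 and a Spearman correlation of −0.16, against 0.49 and 0.44 over the 2237 other genes of that level. These are correlations across genes, which are not independent replicates, and they carry no test. The log2 folds of the 68 members had an SD of 0.15 in pair 1 and 0.13 in pair 2, narrower than the 0.51 and 0.33 of the other genes and wider than the median counting error of 0.03 and 0.02. Of the 16 members that went in opposite directions, 13 were lower with exosomes in pair 1 and higher in pair 2, 8 of them in the large and 5 in the small subunit. The log2 fold was larger in size in pair 2 for 50 of 72 members, which was not counted over all genes.

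**Figure D4:**
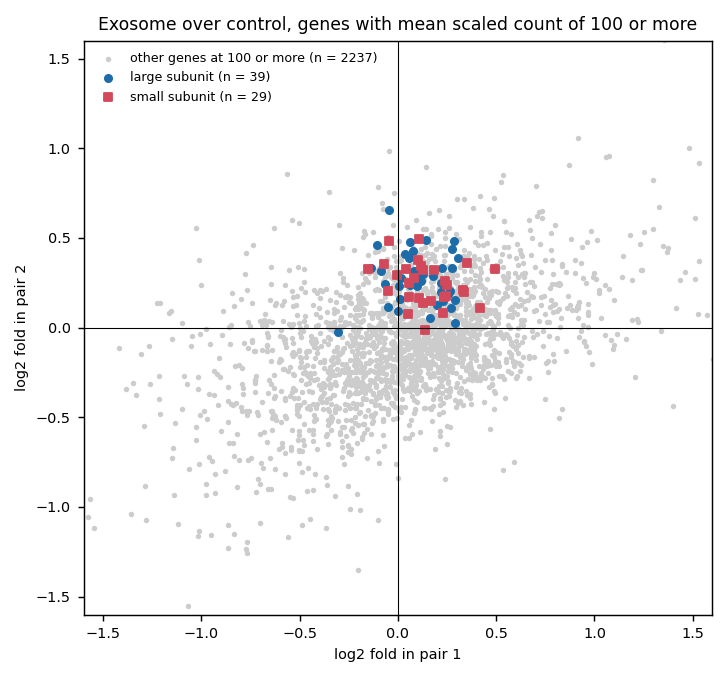
Log2 fold of the scaled count + 1 in pair 1 (x axis) against pair 2 (y axis) for genes with a mean scaled count of 100 or more: 39 large subunit genes (blue circles), 29 small subunit genes (red squares) and 2237 other genes (grey), of which 34 lie outside the plotted range of ±1.6. The ribosomal genes form a compact cloud above 0 with no slope (Pearson −0.12), inside a grey cloud that slopes upward (0.49).

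The authors' deposited table of pair 1, a DEGseq comparison of 1 library with 1, gave an adjusted p under 0.05 to 13 members higher and 3 lower with exosomes, against 5.52% of all its genes higher and 5.67% lower. The authors' deposited table of pair 2 gave it to 62 members higher and 0 lower, against 2.74% and 2.13% of its genes. Among other genes with a mean scaled count of 100 or more, 17.8% were so called higher in pair 1 and 9.03% in pair 2. Of the 72 members, 12 were called higher in both of the authors' deposited tables, against 1.04% of all shared genes. The same share among the other genes at 100 or more, which are called more often, was not counted. These p-values compare the libraries of a pair and not the conditions.

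Ribosomal proteins that carry other names were set beside the members. FAU encodes a ubiquitin-like protein fused to the small subunit protein RPS30 and stood at 364 with PBS and 430 with exosomes in pair 1, then 401 and 580 in pair 2. RACK1, a scaffold on the head of the small subunit, stood at 827, 768, 943 and 1094. FAU was thus higher with exosomes in both pairs, and RACK1 in pair 2 alone. The fitted log2 fold was 0.39 ± 0.23 (SE) for FAU and 0.05 ± 0.23 (SE) for RACK1, and limma called neither.

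The ribosomal paralogs that the rule left out were few and did not stand higher with exosomes as the members did. Of 4 measured paralogs, 1 was higher and 2 were lower with exosomes in both pairs, with a median log2 fold of −0.12 in pair 1 and −0.40 in pair 2. The paralog that was higher was level in pair 2 and shares its identifier with another gene. RPL7L1, which acts in the nucleolus in building the large subunit, stood at 45.0 with PBS and 29.2 with exosomes in pair 1, then 51.5 and 38.1 in pair 2. RPL22L1, the stand-in for RPL22, stood at 53.6, 44.5, 74.3 and 57.5. RPS27L, a p53 target in human cells, stood at 91.9 and 93.4 (pair 1) and 119 and 80.1 (pair 2). RPL7L1 and RPL22L1 were lower with exosomes in each dog, though for RPL22L1 the groups overlap. limma called none, with a fitted log2 fold of −0.52 ± 0.23 (SE) for RPL7L1 and a Benjamini-Hochberg adjusted p of 0.293.

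Other transcripts with a TOP motif were more mixed than the ribosomal proteins. Of 20 measured, leaving out ribosomal proteins, 10 were higher and 3 lower with exosomes in both pairs, their median log2 folds were 0.02 (pair 1) and 0.18 (pair 2), and limma called none of them. VIM, the intermediate filament vimentin, stood at 3364 (PBS) and 2234 (exosomes) in pair 1, then 1535 and 968 in pair 2. HNRNPA1, a splicing factor, stood at 947, 677, 1282 and 830. Both were lower with exosomes in each dog, by a fitted log2 fold of −0.63 ± 0.23 (SE) for VIM and −0.55 ± 0.23 (SE) for HNRNPA1. EEF1A1, which brings transfer RNAs to the ribosome, EEF2, which moves the ribosome along, and TPT1, the translationally controlled tumour protein, were chosen as well known TOP transcripts after their values were seen. EEF1A1 was level in pair 1 at 13516 and 13565 and went from 12183 to 14046 in pair 2. EEF2 stood at 3400, 3371, 2862 and 3318, and TPT1 at 2362, 2931, 3818 and 4307. Of these, TPT1 alone was higher with exosomes in both dogs by more than 10%.

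The factors that start translation stood on both sides of 0. Of 36 measured initiation factors, 12 were higher and 14 lower with exosomes in both pairs, with a median log2 fold of 0.01 in pair 1 and −0.19 in pair 2. EIF2S1, the alpha subunit of eIF2 that stress kinases phosphorylate, stood at 73.1 and 51.2 (pair 1) and 109 and 67.4 (pair 2). EIF1, which guards start codon choice, stood at 891, 1430, 398 and 564. EIF2S2, the beta subunit of eIF2, stood at 175 and 332 (pair 1) and 235 and 254 (pair 2). EIF2S1 was thus lower, and EIF1 and EIF2S2 higher, with exosomes in each dog, with fitted log2 folds of −0.59, 0.59 and 0.51.

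Of 13 elongation and release factors, 2 were higher and 5 lower in both pairs, with median log2 folds of −0.02 in each pair. EEF2K, the kinase that inhibits EEF2, stood at 105 and 58.6 (pair 1) and 60.5 and 50.6 (pair 2). PELO, which rescues stalled ribosomes and shares its identifier with ITGA1, stood at 255, 169, 205 and 142, and EEF1E1, a partner of transfer RNA synthetases, at 21.9, 16.9, 28.7 and 19.3. All 3 were lower with exosomes in each dog. limma called 0 initiation factors and 0 elongation or release factors, with smallest Benjamini-Hochberg adjusted p of 0.224 and 0.25; at an unadjusted p under 0.05 it counted 3 of 36 and 2 of 13, against 15.9% of all genes.

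Among the 23 measured parts and regulators of mTORC1 and the TOP motif, 10 were higher and 6 lower with exosomes in both pairs, with median log2 folds of 0.17 and 0.08, and limma called 0. RPS6KA3, the kinase RSK2, stood at 96.9 with PBS and 472 with exosomes in pair 1, then 120 and 139 in pair 2. EIF4EBP1, which holds back cap-dependent translation until mTORC1 phosphorylates it, stood at 5.26, 7.1, 5.2 and 11.0. TSC1, a brake on mTORC1, stood at 40.7, 71.3, 42.8 and 49.0. For all 3 genes both exosome libraries lay above both control libraries, as they did for 12.9% of all genes. These 3 were named for the largest fitted folds of the list, which favours such a gap in advance. The limma Benjamini-Hochberg adjusted p was 0.117 for RPS6KA3 at a fitted log2 fold of 1.24 ± 0.37 (SE), 0.2 for EIF4EBP1 and 0.351 for TSC1.

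**Figure D5:**
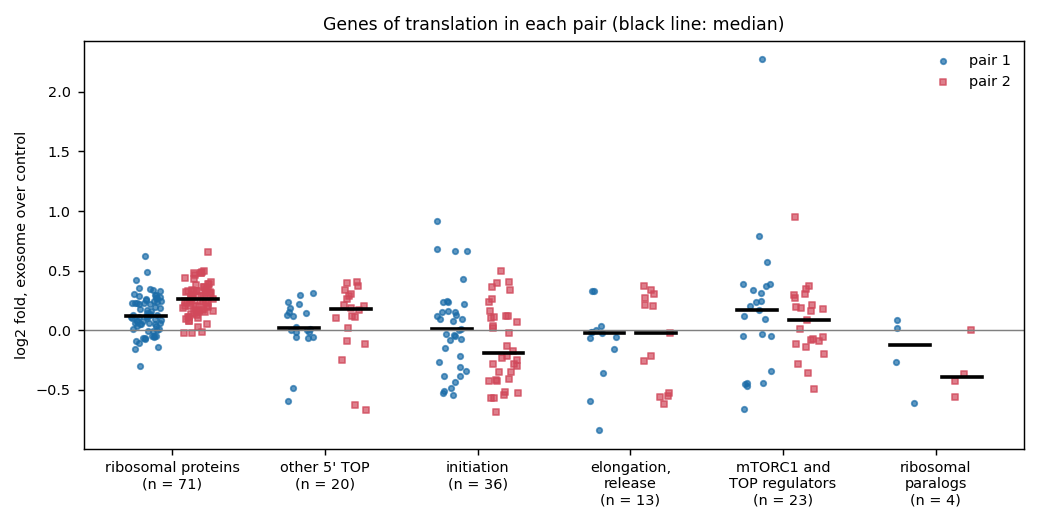
Log2 fold of the scaled count + 1, exosome over control, for each gene of 6 lists, with pair 1 as blue circles, pair 2 as red squares and the median of each as a black line; EEF1A1 and other genes on several lists appear on each, and RPS19BP1 is left out of the 71 ribosomal proteins. The ribosomal proteins lie in a narrow band mostly above 0 in both pairs, while initiation and elongation factors spread to both sides of 0.

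Transcripts encoded in mitochondria, which mitochondrial and not cytosolic ribosomes translate, stood lower with exosomes. Of 13 such genes listed, 9 were among the shared genes. All 9 were lower with exosomes in both pairs and limma called 3 of them lower, CYTB, ND1 and ND3. With TMM factors, or with edgeR, no gene of any kind was called. The 9 genes took 4.06% of reads with PBS and 3.27% with exosomes in pair 1, then 5.72% and 4.0% in pair 2. These are partial shares, since the other listed genes are missing. With the reads of these 9 genes left out of the total, the ribosomal share was 5.07%, 5.23%, 6.64% and 8.18%. The libraries stood in the same order as with them.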

How the data were processed

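Read counts came, per the submitters' processing notes, from FastQC, MultiQC, Trimmomatic (version 0.38), HISAT2 (2.1.0) and featureCounts (1.6.0) on CanFam3.1; no source used here states their order or strand setting. The authors deposited each gene column as a signal: reads divided by 1 factor for the library. Whole reads were recovered from the steps in these values (tolerance 0.001). The authors' filter had kept 11838 of 30951 genes, and 89 genes in pair 1 and 58 in pair 2 were then removed as outliers. The 11691 genes left in both pairs are the shared genes. Shares of reads and of all genes shared by the pairs refer to these. The deposited mean column is a score that averages a table's libraries. The authors' log2 fold and p-values come from DEGseq with 1 library against 1, per the file headers.

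edgeR was the test planned for counts. The files held scaled values, so limma 3.58.1 (R 4.3.3) was fitted on log2(value + 1) over 11691 genes, with the pair as a block and Benjamini-Hochberg adjustment at 0.05 (1 residual and 11.4 prior degrees of freedom). The added 1 shrinks the folds of low genes. Alternatives on the recovered reads were edgeR 4.0.16, limma-voom and DESeq2 1.42.0. Pairing comes from the design text and table names, and deviations within a pair correlated at 0.818, equal in both pairs by construction. Columns were assigned to control or exosome and to a table, and not by the time in their names. The scripts were tested on simulated data. Summed markers leave out identifiers with several symbols.

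The members and lists were chosen with earlier results of these data known. Genes were named by a rule: in each subunit the 6 highest and 6 lowest fitted log2 folds and the 3 highest levels, RPLP0, RPLP2 and RPSA, members with a log2 fold over 0.5 in size in a pair, and, per further list, called genes and then the 3 largest fitted folds where each pair has a library with 50 reads or more. Names outside it are marked. A few of the genes it picks go unreported here. Of 80 ribosomal proteins listed, 74 were found among all symbols; RPL23A, RPL32, RPL36, RPL38, RPL41 and RPLP1 are not analysed here. Of the members, 6 share an identifier with another symbol, and 68 gene numbers were found in RefSeq's table of UU_Cfam_GSD_1.0, used for names only.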

Additional observations from a re-analysis of the deposited data

Results flagged for a closer look

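Of the 72 members, 16 moved in opposite directions in the pairs, each pair being 1 library against 1, and the difference between the pairs was not tested. The log2 fold of pair 2 minus that of pair 1 was 0.70 for RPL13, 0.57 for RPL29, 0.53 for RPS2, 0.48 for RPSA, 0.47 for RPL13A, 0.42 for RPS19 and 0.40 for RPLP0, all lower with exosomes in pair 1 and higher in pair 2. The same direction held at 0.31 for RPL6, 0.26 for RPL31, 0.26 for RPS9, 0.17 for RPL15 and 0.10 for RPL7, where the pair 1 value of RPL7 lay within 0.01 of 0. The reverse direction held at −0.22 for RPS19BP1 and −0.65 for RPS23. RPL31, RPS23 and RPS19BP1 are low members, and RPSA, RPS9 and RPS19 share an identifier with another symbol. Groups of 2 libraries are too small for a check of single libraries that stand apart.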

How the results depend on the processing

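Over the scalings, pseudocounts, read filter, count tests, fits with and without the replicate block, and choices of members that were run, the members called stayed at 0 in each direction, and the median log2 fold lay at 0.19 to 0.23 for members and large subunit genes and at 0.18 to 0.24 for small subunit genes. No scaling moved the median of all genes by over 0.1. All genes called, 29 higher and 58 lower, became 0 and 0 with TMM, DESeq2, upper-quartile or total scaling (with or without ribosomal reads), with a pseudocount of 0.1, with edgeR or limma-voom, and in the fit with no replicate block. They became 202 and 408 with a pseudocount of 5, 132 and 294 with at least 10 reads in every library, 62 and 107 with DESeq2, and 205 and 402 with a variance trend in limma, chosen after seeing the data. The cause was not tested. VIM passed the threshold with a pseudocount of 5, and RPS6KA3 with that, the read filter and the trend.

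Leaving out each library in turn, fitted with no block so that the dogs are unbalanced between the groups by construction, called 0 of all genes and 0 members. The medians then ran from −0.067 to 0.49 for members, −0.065 to 0.49 for large and −0.077 to 0.49 for small subunit genes. They were negative without the control library of pair 1 or the exosome library of pair 2. The share difference ran from −0.50 to 2.29 points, and the difference in log2 ratio from −0.075 to 0.047, with 0.030 in pair 2 alone. Log2 folds that turned sign ran from −0.40 to 0.073 for RPL3, −0.23 to 0.32 for RPL7, −0.10 to 0.17 for RPL15, −0.055 to 0.18 for RPL31, −0.71 to 0.89 for RPL6, −0.17 to 0.37 for RPL13A, −0.15 to 0.44 for RPL4, −0.14 to 0.70 for RPL17, −0.18 to 0.56 for RPL5, −0.21 to 0.54 for RPL11, −0.11 to 0.47 for RPL29 and −0.031 to 0.26 for RPLP0. In the small subunit they ran from −0.15 to 0.33 for RPSA, −0.19 to 0.62 for RPS2, −0.010 to 0.55 for RPS3A, −0.13 to 0.39 for RPS4X, −0.18 to 0.58 for RPS6, −0.089 to 0.24 for RPS9, −0.27 to 0.49 for RPS10, −0.20 to 0.80 for RPS16, −0.20 to 0.48 for RPS19 and −0.24 to 0.85 for RPS23. Elsewhere they ran from −0.25 to 0.28 for RPS19BP1, −0.20 to 0.31 for RACK1, −0.024 to 0.22 for EEF2, −0.10 to 0.59 for TPT1 and −0.079 to 1.26 for EIF1. Folds that kept their sign ran from 0.088 to 0.73 for RPS21, 0.036 to 0.73 for RPL24, 0.029 to 0.68 for RPS27, 0.038 to 0.68 for RPL37, 0.060 to 0.54 for RPL37A, 0.15 to 0.54 for RPL35A, 0.071 to 0.56 for RPLP2, 0.0075 to 0.60 for RPL13, 0.24 to 0.26 for RPS20, 0.17 to 0.60 for FAU, −1.23 to −0.025 for VIM, −0.77 to −0.34 for HNRNPA1, −0.70 to −0.33 for RPL7L1, −0.88 to −0.31 for EIF2S1, 0.30 to 0.72 for EIF2S2 and 0.36 to 2.12 for RPS6KA3.

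Pair 1 alone turned the fitted sign at −0.0020 for RPL7, −0.046 for RPL13, −0.047 for RPS2, −0.050 for RPL15, −0.053 for RPS9, −0.066 for RPL6, −0.067 for RPL31, −0.072 for RPS19, −0.086 for RPLP0, −0.11 for RPL29 and RACK1, −0.14 for RPL13A, −0.15 for RPSA, −0.012 for EEF2 and 0.023 for RPS27L. Pair 2 alone did so at −0.023 for RPS23 and −0.092 for RPS19BP1. Of 988 values of 52 single genes, 58 turned sign. Depth limits the 3 members under a scaled count of 10, and 2 libraries per group limit all others.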
